A study of Mus musculus with 8 samples.

Results

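The genes of MHC class I antigen presentation and of the immunoproteasome were examined in tumors with and without tumor-derived IL-6. They are the 10 genes H2-K1, H2-D1, B2m, Tap1, Tap2, Tapbp, Psmb8, Psmb9, Psmb10 and Nlrc5, found by symbol among the 27179 genes of the deposited expression table, where each has 1 row. The tumors were subcutaneous C26 colon carcinomas in male CD2F1 mice, isolated once the mice had lost enough body weight to be called cachectic. In 4 tumors the implanted cells were cxC26 scr, the cachectic line carrying Cas9 and a scrambled guide RNA, which the labels also call wild type. In the other 4 they were cxC26 IL6KOs1, a single subclone isolated from cells in which Cas9 and guide RNAs had disrupted the IL-6 gene. Both lines were made with lentivirus and puromycin selection, and the host mice of both groups had intact IL-6 genes. In the study the knockout subclone was implanted in larger numbers and its tumors took longer to reach the terminal stage, and the day of collection of the sequenced tumors is not given in the sources used here. Loss of IL-6, the isolation of 1 subclone, the inoculum and the time of growth cannot be told apart in this comparison. Bulk RNA from whole tumors was sequenced, so host cells in the tumor are included.

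MHC class I molecules display short peptides from inside the cell to CD8 T cells. A peptide is cut from a protein by the proteasome, carried into the endoplasmic reticulum by the transporter TAP, and loaded onto a heavy chain paired with beta-2-microglobulin. Interferons raise the genes of this route together, and they exchange the catalytic subunits of the standard proteasome for those of the immunoproteasome. NLRC5 is a transactivator of class I genes, whose promoters hold elements bound by interferon regulatory factors, NF-kappaB and the RFX, CREB and NF-Y factors.

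The stretches of DNA just before the start sites of the heavy chain and light chain genes, and the stretch between Tap1 and Psmb9, are shown because these genes moved together in the tumors described further on. Each runs 5′ to 3′, and its last base lies just before a start site listed for the gene named in the RefSeq promoter table on GRCm38.p6, the build also called mm10. H2-K1 has 2 listed start sites, and the stretch shown is the one before the upstream of them. It lies within the gene's full RefSeq span, which reaches 34000619. Capitals mark matches to an interferon-stimulated response element (ISRE, GAAANNGAAA) and to the kappaB motif, each searched on both strands. They are H2-K1 at chr17:34000348-34000597 on the reverse strand, H2-D1 at chr17:35262844-35263093 on the forward strand, B2m at chr2:122147437-122147686 on the forward strand, and the 225 bases between Psmb9 and Tap1 at chr17:34187331-34187555, written on the strand of Tap1.
H2-K1: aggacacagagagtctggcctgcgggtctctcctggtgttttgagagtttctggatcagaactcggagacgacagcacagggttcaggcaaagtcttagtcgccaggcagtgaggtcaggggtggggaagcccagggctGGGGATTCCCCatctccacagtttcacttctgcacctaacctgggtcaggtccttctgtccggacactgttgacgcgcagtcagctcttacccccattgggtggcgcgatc
H2-D1: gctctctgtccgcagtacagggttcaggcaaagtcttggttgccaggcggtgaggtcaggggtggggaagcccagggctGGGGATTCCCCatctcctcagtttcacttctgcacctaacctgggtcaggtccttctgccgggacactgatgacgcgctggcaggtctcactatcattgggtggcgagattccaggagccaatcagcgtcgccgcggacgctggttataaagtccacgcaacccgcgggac
B2m: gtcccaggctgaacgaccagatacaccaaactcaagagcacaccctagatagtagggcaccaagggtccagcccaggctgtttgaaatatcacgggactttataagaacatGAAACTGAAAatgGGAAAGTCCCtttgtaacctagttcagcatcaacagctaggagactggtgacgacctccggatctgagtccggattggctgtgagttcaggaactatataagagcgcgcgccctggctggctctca
Tap1 and Psmb9: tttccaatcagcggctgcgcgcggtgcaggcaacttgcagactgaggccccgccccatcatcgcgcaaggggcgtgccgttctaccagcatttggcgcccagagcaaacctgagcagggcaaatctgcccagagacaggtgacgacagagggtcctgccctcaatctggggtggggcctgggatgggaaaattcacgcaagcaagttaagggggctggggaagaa

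In the 250 bases before H2-K1 and H2-D1 the longest identical run was 47 bases, and the kappaB letters lie within it. The B2m window held the ISRE and the kappaB motif close to each other. A kappaB match was present in 3 of the 8 promoters found in the RefSeq table, those of H2-K1, H2-D1 and B2m. It was present in 3.75% of 27025 genes, each searched only at its first listed start site. H2-K1 was searched at both of its start sites and had the match at each. The exact ISRE letters GAAANNGAAA were present in 1 of the 8 (B2m), against 3.04% of genes. A gamma-interferon activated site (TTCNNNGAA) was present in 1 of the 8 (Psmb8), against 7.18%. Elements that differ from the letters searched were not looked for, so a promoter without a match can still hold one. The CCAAT box, which NF-Y binds, was present in 6 of the 8 and in 34.5% of genes. The box of Tap1 and that of Psmb9 are the same letters of the stretch between them, counted for each gene. The kappaB letters of H2-K1 and of H2-D1 match on both strands in overlapping frames and were counted once. These matches are letters in a reference sequence and were not tested for binding. Tap1 and Psmb9 are transcribed away from each other from the stretch shown, where neither an ISRE nor a kappaB match was found. Tap2 and Nlrc5 were not searched.

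Of the 10 genes, 9 were higher in the cxC26 IL6KOs1 tumors and 0 were lower at the 0.05 threshold. The test was limma, with p-values adjusted by the Benjamini-Hochberg method over 13262 genes, those reaching 1 CPM in 4 or more tumors. CPM are read counts scaled to library size, and a log2 difference of 1 is a doubling. The 10 genes were all above 1 CPM in all 8 tumors. Among all tested genes 19.1% were higher and 20.7% lower, 39.8% in either direction. For the same 9 genes every cxC26 IL6KOs1 tumor was above every cxC26 scr tumor, which held for 17.8% of all tested genes. Increases of at least 2-fold past the same threshold were found for 5 of the 10 genes (Tap1, Tap2, Tapbp, Psmb8 and Psmb9) and for 6.25% of all genes. That count rested on replicate 1 of the cxC26 IL6KOs1 tumors: without it, 2 of the 10 genes (Tapbp and Psmb9) and 5.47% of all genes met the same requirement. The median log2 fold change was 1.08 over the 10 genes and -0.003 over all tested genes. The exception was Nlrc5. In bulk RNA, more cells of a type and more RNA per cell cannot be told apart.

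The tumor replicate 1 of cxC26 IL6KOs1 stood apart from the other 3 of its group and was the highest of all 8 tumors in each of the 10 genes. Results are therefore also given without it. The 9 genes were still higher without it, when 18.3% of all genes were higher and 19.9% lower, and their groups still did not overlap. The median over the 10 genes was then 0.79. Il6 itself was covered by 326 to 438 reads per tumor in cxC26 scr and by 56 to 86 in cxC26 IL6KOs1, with 64 in replicate 1, which was thus as low as the rest of its group. Reads counted on genes were between 14158989 and 17048062 per tumor, and the totals of the groups overlapped. The p-values measure the spread between these tumors, which the labels number without saying from how many cell cultures they were started.

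**Figure D1:**
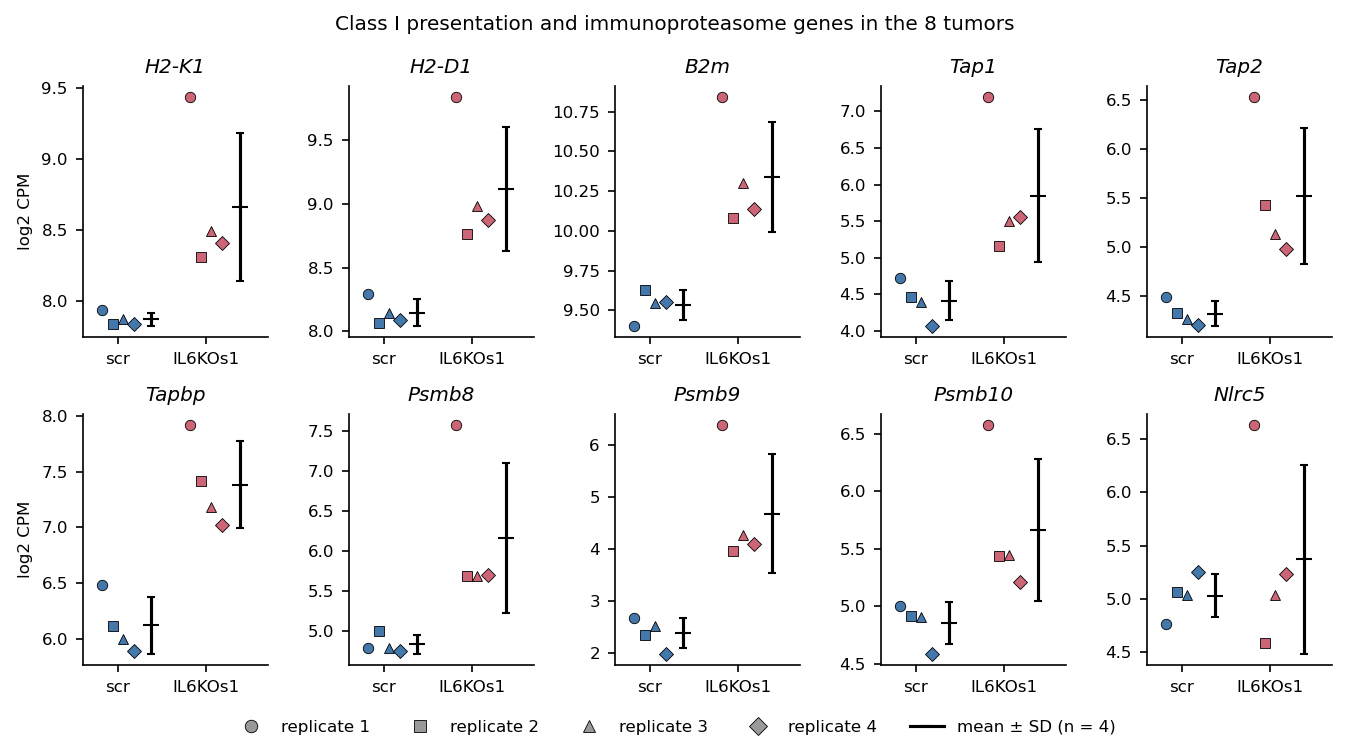
Expression of the 10 genes in log2 CPM (y axis, scaled for each gene and not starting at 0) in the 4 cxC26 scr tumors (blue) and the 4 cxC26 IL6KOs1 tumors (red), where each symbol is a tumor and the bar beside it the mean ± SD. In 9 genes all red symbols lie above all blue ones, in Nlrc5 they overlap, and the red circle, replicate 1, is the highest in every panel.

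The heavy chains and their light chain had the highest levels of the 10 genes and rose by less than a doubling. H2-K1 and H2-D1 encode the classical class I heavy chains, and B2m encodes beta-2-microglobulin. H2-K1 (chromosome 17, 33996012 to 34000619) was at 7.94, 7.84, 7.88 and 7.84 log2 CPM in the cxC26 scr tumors and at 9.44, 8.31, 8.50 and 8.41 log2 CPM in the cxC26 IL6KOs1 tumors. The cxC26 scr tumors lay close together, and the groups did not overlap. The log2 fold change was 0.79 (standard error 0.199, adjusted p = 0.00864 from limma), a 1.73-fold increase, and 0.53 without replicate 1. H2-D1 (chromosome 17, 35263094 to 35267497) was at 8.30, 8.07, 8.14 and 8.09 log2 CPM and at 9.84, 8.77, 8.99 and 8.87 log2 CPM in the same order of groups. Its groups did not overlap either. The log2 fold change was 0.97 (standard error 0.192, adjusted p = 0.00217 from limma), or 1.96-fold, and 0.73 without replicate 1. B2m (chromosome 2, 122147687 to 122153082) was at 9.40, 9.63, 9.55 and 9.56 log2 CPM in the cxC26 scr tumors and at 10.84, 10.08, 10.30 and 10.14 log2 CPM in the cxC26 IL6KOs1 tumors, which was 10659 to 12820 reads per tumor against 15034 to 29790. Again no cxC26 IL6KOs1 tumor fell among the controls. The increase of 0.81 in log2 units (0.153 standard error, adjusted p of 0.00161 from limma) was 1.75-fold, and 0.64 remained without replicate 1.

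Values of the heavy chain genes carry a limit of their own. CD2F1 mice and C26 cells carry the H-2d alleles of the class I genes, while the reads were aligned to the C57BL/6J reference, whose alleles are H-2b. Reads that differ from the reference can be lost or assigned to a related gene, in both groups alike as far as the alleles are the same. In the GENCODE M21 reference transcripts, 7.10% of the 75-base words of H2-D1 also occurred in other genes, mostly H2-Q1, and 1.55% of those of H2-K1. Counts of single H2 genes are therefore uncertain. B2m shared 0 such words with another gene, and B2m rose by 1.75-fold and H2-K1 by 1.73-fold. In the annotation Patl2 overlaps B2m, and the strand setting of the counting is not given in the sources used here.

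The peptide transporter and its partner rose by more than a doubling. Tap1 and Tap2 encode the chains of the TAP transporter, and Tapbp encodes tapasin, which holds empty class I molecules at TAP during loading. Tap1 (chromosome 17, 34187556 to 34197225) was at 4.72, 4.47, 4.40 and 4.07 log2 CPM in the cxC26 scr tumors and at 7.19, 5.15, 5.50 and 5.55 log2 CPM in the cxC26 IL6KOs1 tumors. The log2 fold change was 1.44 (standard error 0.350, adjusted p = 0.00710 from limma), or 2.70-fold. Replicate 1 had 2373 reads against 493 to 714 in the other 3, and without it the log2 fold change was 0.99. Tap2 (chromosome 17, 34204479 to 34216321) was at 4.49, 4.33, 4.27 and 4.20 log2 CPM against 6.52, 5.43, 5.14 and 4.98 log2 CPM. It was higher by 1.20 (0.266 standard error, adjusted p of 0.00435 from limma), or 2.29-fold, and by 0.86 without replicate 1. Tapbp (chromosome 17, 33919478 to 33929290) was at 6.48, 6.12, 5.998 and 5.89 log2 CPM against 7.92, 7.41, 7.18 and 7.02 log2 CPM. Its increase of 1.26 in log2 units (0.180 standard error, adjusted p of 0.000300 from limma), or 2.40-fold, had the smallest adjusted p of the 10 genes, and it was 1.08 without replicate 1. In the reference transcripts 17.5% of the 75-base words of Tapbp were shared, mostly with Gm19412, a long noncoding RNA gene that overlaps it, and 8.97% of those of Tap2 were shared, mostly with Gm15821. Tap1 shared 4.79% of its words, with its neighbor Psmb9.

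The immunoproteasome subunits spanned the widest range of changes. Psmb8, Psmb9 and Psmb10 encode the inducible catalytic subunits that take the places of those encoded by Psmb5, Psmb6 and Psmb7. Psmb9 (chromosome 17, 34182030 to 34187330) had the largest change of the 10 genes and the fewest reads. It was at 2.67, 2.35, 2.54 and 2.00 log2 CPM in the cxC26 scr tumors, from 61 to 106 reads, and at 6.39, 3.97, 4.28 and 4.11 log2 CPM in the cxC26 IL6KOs1 tumors, from 216 to 1363 reads. The lowest cxC26 IL6KOs1 tumor was above the highest cxC26 scr tumor by more than the range of the controls. The log2 fold change was 2.30 (standard error 0.438, adjusted p = 0.00166 from limma), or 4.92-fold, and 1.73 without replicate 1, or 3.32-fold. Of the 75-base words of Psmb9, 10.8% also occurred in GENCODE transcripts of Tap1. In RefSeq the 2 genes do not overlap. The annotation used for the counting is not given, so whether reads of the pair were mixed is not known.

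Psmb8 (chromosome 17, 34198195 to 34201454) was at 4.78, 4.996, 4.78 and 4.75 log2 CPM in the cxC26 scr tumors and at 7.57, 5.68, 5.68 and 5.70 log2 CPM in the cxC26 IL6KOs1 tumors. Except for replicate 1 the values within each group were close together. It was higher by 1.33 (0.348 standard error, adjusted p of 0.0104 from limma), or 2.51-fold, and by 0.86 without replicate 1. Psmb8 missed the threshold when all genes were tested unfiltered (adjusted p = 0.0512 from limma). Psmb10 (chromosome 8, 105935728 to 105938392) was at 5.001, 4.92, 4.91 and 4.59 log2 CPM against 6.57, 5.44, 5.44 and 5.21 log2 CPM. This was the least certain of the 9 increases, at 0.81 (standard error 0.243, adjusted p = 0.0203 from limma), or 1.75-fold. It was 0.51 without replicate 1, and its adjusted p was 0.0777 with no filter and 0.0612 without cxC26 scr replicate 4. Psmb10 shared 0 of its 75-base words with another gene.

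Nlrc5 was the 1 gene of the 10 that was not called. Nlrc5 (chromosome 8, 94434335 to 94527272) was at 4.77, 5.07, 5.03 and 5.25 log2 CPM in the cxC26 scr tumors and at 6.63, 4.58, 5.04 and 5.23 log2 CPM in the cxC26 IL6KOs1 tumors. Replicate 1 was high, the other 3 lay around the controls, and replicate 2 was the lowest of all 8 tumors. The log2 fold change was 0.34 (95% confidence interval -0.39 to 1.07, adjusted p = 0.442 from limma), an interval that leaves room for a doubling. Without replicate 1 it was -0.08 (adjusted p = 0.724 from limma). Whether the other genes changed by more than Nlrc5 was compared within tumors, as the log2 level of each minus that of Nlrc5, a comparison chosen after the values had been seen. Psmb9 minus Nlrc5 differed by 1.96 between the groups, Tap1 minus Nlrc5 by 1.10, Psmb8 minus Nlrc5 by 0.99 and Tap2 minus Nlrc5 by 0.86, each without overlap (two-sided exact permutation test, p = 0.0286, 0.0643 after adjustment over 9 genes, n = 4 each). The other 5 overlapped between the groups, and none of the 9 passed the adjusted threshold. The smallest p that 4 against 4 tumors can give is 0.0286. In RefSeq the genes 9330175E14Rik, Gm51584 and Mir7072 overlap Nlrc5.

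**Figure D2:**
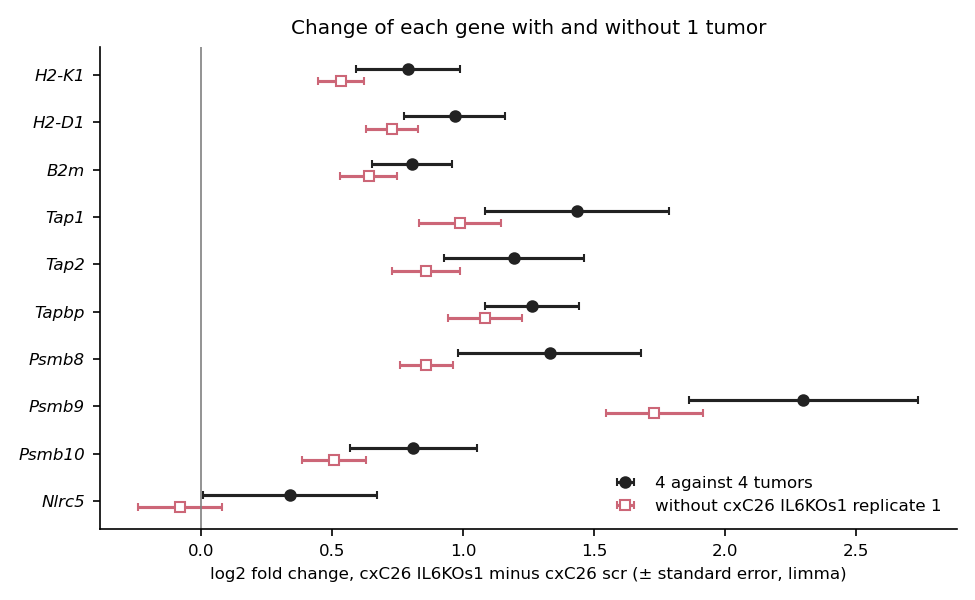
Log2 fold change of each of the 10 genes, cxC26 IL6KOs1 minus cxC26 scr (x axis), with standard errors from limma, for 4 against 4 tumors (filled circles) and without cxC26 IL6KOs1 replicate 1 (open squares). Each estimate is lower without that tumor, 9 stay above 0, and Nlrc5 moves from 0.34 to -0.08.

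The order of the genes by level, per kilobase of exon, was similar in both groups. Lengths were the union of the exons in GENCODE M21, and levels are geometric means of CPM per kilobase. Except for B2m, the union is longer than the longest protein-coding transcript, with 3660 against 1352 bases for Psmb9. The levels, their order and their overlaps hold for these lengths only. In the cxC26 scr tumors B2m was highest at 862 CPM per kilobase, followed by H2-D1 (110.0), H2-K1 (79.8), Tapbp (19.2), Psmb10 (17), Psmb8 (8.40), Tap2 (5.29), Tap1 (3.89), Nlrc5 (3.85) and Psmb9 (1.43). Tapbp and Psmb10, and Tap1 and Nlrc5, overlapped between tumors, and the other neighbors did not. In the cxC26 IL6KOs1 tumors the order was the same down to Tap1, from B2m at 1508 to Tap1 at 10.5 CPM per kilobase, and Psmb9 (7.04) stood above Nlrc5 (4.87). Only B2m from H2-D1, and H2-K1 from Tapbp, were separated between neighbors there.

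Each inducible subunit was then compared with the constitutive subunit it replaces within the same tumor, a ratio that does not depend on the scaling of libraries. The constitutive genes were not called. Psmb5 had a log2 fold change of 0.08 (95% confidence interval -0.21 to 0.37), Psmb6 of -0.10 (-0.30 to 0.10) and Psmb7 of -0.02 (-0.19 to 0.14). The log2 ratio of Psmb8 to Psmb5 was -1.44, -1.29, -1.43 and -1.45 in the cxC26 scr tumors and 1.06, -0.97, -0.44 and -0.29 in the cxC26 IL6KOs1 tumors. Only in replicate 1 did the inducible gene have more CPM than the constitutive one. These CPM are not divided by gene length, with 3381 bases of exon for Psmb8 and 899 for Psmb5. Per kilobase of this exon union, Psmb8 averaged 4.40 log2 CPM in the cxC26 IL6KOs1 tumors and Psmb5 averaged 6.47. The longest protein-coding transcript of Psmb8 has only 1628 bases. Which of the 2 genes was higher per kilobase in replicate 1 therefore depends on the length used and is not settled here. The ratio of Psmb9 to Psmb6 was -4.19, -4.75, -4.52 and -5.02 on the log2 scale against -0.62, -3.05, -2.61 and -2.60. The ratio of Psmb10 to Psmb7 was -2.56, -2.87, -2.80 and -3.10 against -1.11, -2.25, -2.23 and -2.42. In none of the 3 ratios did the groups overlap. The mean difference was 1.25 for Psmb8 to Psmb5, 2.40 for Psmb9 to Psmb6 and 0.83 for Psmb10 to Psmb7, or 2.37-fold, 5.28-fold and 1.78-fold (two-sided exact permutation test, p = 0.0286 for each, also after adjustment over the 3 ratios, n = 4 each). Without replicate 1 the differences were 0.84, 1.86 and 0.54 (exact permutation test, p = 0.0286, 0.0286 and 0.0571). With any 1 of the 4 cxC26 scr tumors left out, the differences of Psmb8 to Psmb5 and of Psmb10 to Psmb7 also missed the threshold (exact permutation test, p = 0.0571), and that of Psmb9 to Psmb6 passed it (p = 0.0286).

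**Figure D3:**
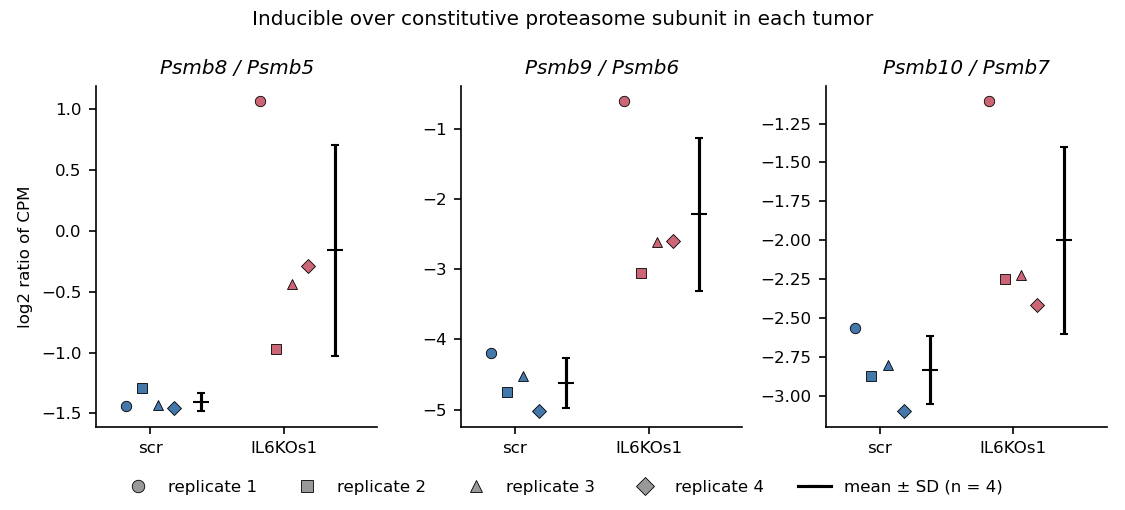
Log2 ratio of CPM of each inducible proteasome subunit to the constitutive subunit it replaces (y axis, a scale for each ratio) in the 4 cxC26 scr tumors (blue) and the 4 cxC26 IL6KOs1 tumors (red), with the mean ± SD beside the tumors. The groups do not overlap in any of the 3 ratios. Psmb8 has more CPM than Psmb5 only in cxC26 IL6KOs1 replicate 1, at 1.06, with no correction for gene length.

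Other genes of the class I route were taken from a list of 58, of which 56 were tested. At the same threshold 19 were higher and 8 lower, and their median log2 fold change was 0.28. Counts here and by role below stand beside 19.1% higher and 20.7% lower among all tested genes. Among the class Ib and related heavy chains, 8 of 13 tested genes were higher and 0 lower. H2-Q4 rose by 0.94 (adjusted p = 0.0107 from limma), H2-T22 by 1.16 (0.00442 from limma) and H2-Q7, from 16 to 38 reads in the controls, by 1.66 (0.0148 from limma). With no filter on low expression H2-Q4 (0.0513) and H2-Q7 (0.0634) lost the call. These genes form a family with shared sequence and carry the same limit as H2-K1 and H2-D1.

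In the endoplasmic reticulum, 4 of 6 genes of loading and trimming were higher, Canx, Hspa5, Pdia3 and Tapbpl. Hspa5, a chaperone of the unfolded protein response, rose by 0.57 (adjusted p = 0.00981 from limma), Pdia3, which sits with tapasin in the loading complex, by 0.33 (0.0191 from limma) and Tapbpl, a tapasin relative that edits peptides, by 1.00 (0.00979 from limma). Hspa5 and Pdia3 lost the call with no filter, at 0.0715 and 0.0859, and Pdia3 also lost it without cxC26 scr replicate 3 (0.0705) or cxC26 IL6KOs1 replicate 3 (0.0601). Cytosolic peptidases went the other way, with 0 of 6 higher and 4 lower (Blmh, Lap3, Npepps and Tpp2). Lap3, leucine aminopeptidase, had the highest CPM of these and fell by 0.61 on the log2 scale (adjusted p = 0.00600 from limma), while Nrd1, nardilysin, had a log2 fold change of 0.18 (0.0877 from limma). Of 5 proteasome activators and assembly factors, 1 was higher and 2 were lower. Psme1, a subunit of the PA28 activator, rose by 0.72 (adjusted p = 0.0292 from limma), a call that was lost without cxC26 scr replicate 1 (0.0506), 3 (0.0699) or 4 (0.0783), without cxC26 IL6KOs1 replicate 2 (0.0728), with no filter (0.105), without the variance trend (0.0656) and with regional medians removed (0.0808). Psme4, a nuclear activator, fell by 0.37 (adjusted p = 0.00440 from limma), and Pomp, the chaperone of proteasome assembly, by 0.35 (0.00633 from limma). With the median of each chromosome region removed Pomp was at 0.12 (adjusted p = 0.329 from limma).

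Transcription factors of class I genes and the interferon route upstream of them were mixed. Of 15 factors, 4 were higher, among them the interferon regulatory factors Irf8 and Irf9, and 2 lower (Creb1 and Nfya). Among all tested genes 19.1% were higher and 20.7% lower, and whether these factors differ from that was not tested. The NF-kappaB genes Nfkb1 (0.08, adjusted p = 0.550 from limma) and Rela (0.27, adjusted p = 0.0897 from limma) were not called, and Rela was called with the replicate number as a block (adjusted p = 0.0407 from limma), under quantile normalization (0.0421) and without cxC26 scr replicate 1 (0.00383). Creb1 fell by 0.40 (adjusted p = 0.00686 from limma), and was at 0.00 with regional medians removed.

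Of the 8 tested genes of interferon signaling, 2 were higher (Ifngr1 and Ifnar2) and 0 lower. The shares over all tested genes were 19.1% higher and 20.7% lower. Ifngr1, a chain of the interferon gamma receptor, was at 5.64 to 5.99 log2 CPM in the cxC26 scr tumors and at 6.49 to 6.72 in the cxC26 IL6KOs1 tumors. Its log2 fold change was 0.75 (standard error 0.0985, adjusted p = 0.000171 from limma), and with regional medians removed it was 0.15 (adjusted p = 0.289 from limma). The kinases Jak1 (0.04, adjusted p = 0.682 from limma) and Jak2 (-0.13, adjusted p = 0.564 from limma) were not called. Ifng, named after its values had been seen, had 0 reads in each cxC26 scr tumor and 33, 0, 1 and 2 reads in the cxC26 IL6KOs1 tumors, too few to pass the filter. Replicate 1 was thus the tumor with the most Ifng reads.

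**Figure D4:**
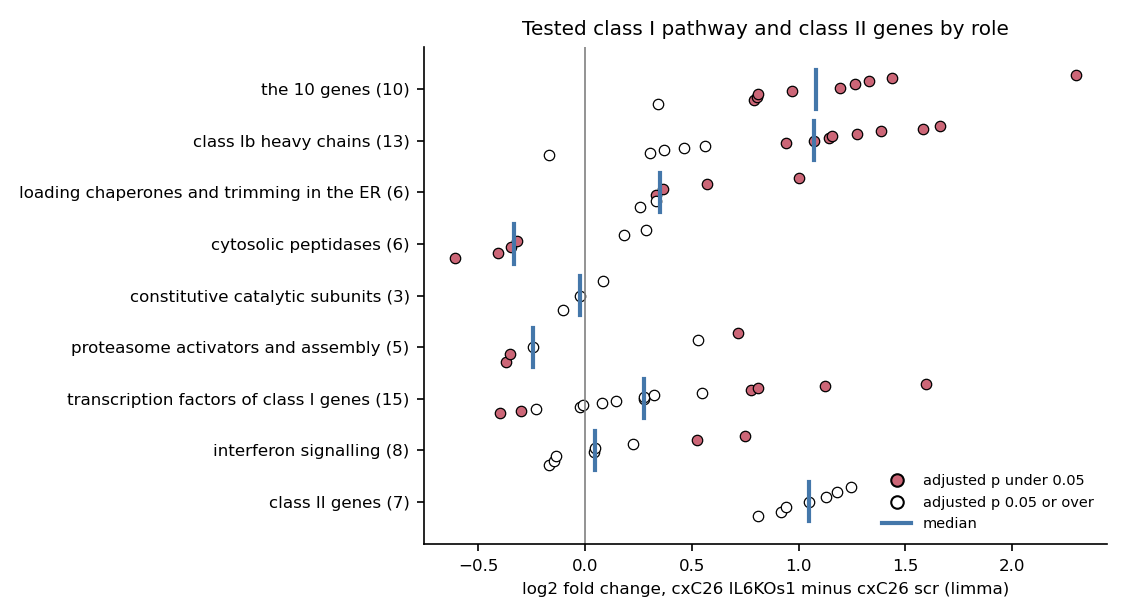
Log2 fold change, cxC26 IL6KOs1 minus cxC26 scr (x axis), of each tested gene of the class I route and of MHC class II (circles), by role with the number tested in parentheses, filled where the adjusted p-value from limma was under 0.05, with the median of each role as a vertical line. The 10 genes lie above 0, as do the class Ib and related heavy chains except Mr1, the cytosolic peptidases are 4 lower and 2 not called, and the 7 class II genes are all open circles.

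MHC class II genes, which present peptides on professional antigen-presenting cells, had a similar median and no call. Their 7 genes had a median log2 fold change of 1.05, with 0 called higher or lower (limma) and 1 of 7 at an unadjusted p under 0.05. Replicate 1 was far above the rest. Cd74, the invariant chain, was at 4.97, 6.09, 4.99 and 5.01 log2 CPM in the cxC26 scr tumors and at 9.18, 5.79, 5.32 and 5.30 log2 CPM in the cxC26 IL6KOs1 tumors. H2-Ab1, a class II beta chain, was at 4.13 to 4.79 log2 CPM in the controls, at 8.09 in replicate 1 and at 4.30 to 4.91 in the other 3. Without replicate 1 the class II median was 0.20, with 1 of 7 genes called (H2-DMa), and the median of the 10 class I genes was 0.79 with 9 called. Differences between the changes of the class I and class II genes were not tested.

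Of the 10 genes, 7 lie within 1.35 Mb of chromosome 17 in the MHC region, from Tapbp to H2-D1, and a shift of that whole region was therefore looked for. All 7 were higher. Between them 57 other tested genes outside the class I and class II lists and without an H2 name had a median log2 fold change of -0.02, with 11 higher and 6 lower. These counts stand beside 19.1% higher and 20.7% lower among all tested genes. The class II genes in the interval were 5, with 0 called, and other H2 genes were 3, with 0 called. The median of all tested genes in the 10 Mb window was 0.03 for the chromosome 17 genes, -0.08 for B2m, 0.00 for Psmb10 and 0.18 for Nlrc5. The calls of the 10 genes were the same with these regional medians removed.

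**Figure D5:**
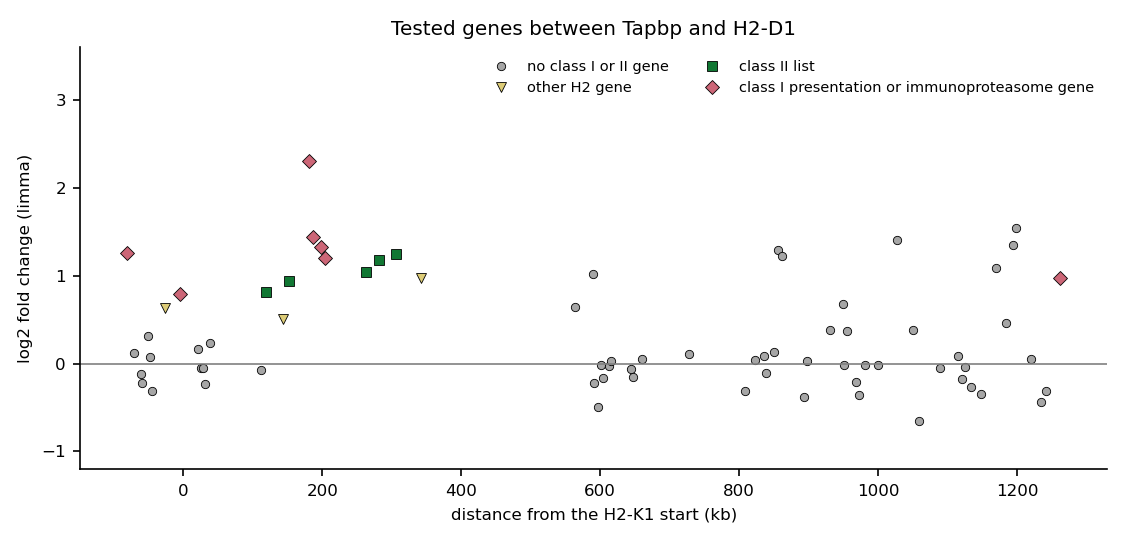
Log2 fold change (y axis, limma) of the tested genes between Tapbp and H2-D1 against the distance of their lower end from the start of H2-K1 in kb (x axis). The 7 class I presentation and immunoproteasome genes (red diamonds) lie between 0.79 and 2.30, while the 57 genes of neither class (gray) have a median of -0.02.

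Markers of leukocytes moved with the same groups. The level of each marker list was the sum of its CPM. The 4 pan-leukocyte genes summed to 119 to 142 CPM in the cxC26 scr tumors and to 211 to 455 CPM in the cxC26 IL6KOs1 tumors, with 455 in replicate 1, and all 4 were higher. Ptprc, which encodes CD45, rose by 1.03 on the log2 scale (adjusted p = 0.00954 from limma). The 6 macrophage genes summed to 446 to 596 CPM against 869 to 1209 CPM, and all 6 were higher, among them C1qa, a complement gene of macrophages, by 1.02 (adjusted p = 0.00305 from limma). Class I genes are expressed by tumor cells and by leukocytes. The part of leukocytes in the increases of the 10 genes was not tested.

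Lymphocyte markers were near 0 in the controls. The 6 T cell genes summed to 0.984 to 3.03 CPM in the cxC26 scr tumors and 8.59 to 16 CPM in cxC26 IL6KOs1. Of these, 4 genes were tested and called higher, Cd4 by 1.25. Cd3g, Cd8a and Cd8b1 reached 1 CPM only in cxC26 IL6KOs1 tumors. They thus passed the filter through the group where they are high, so their calls add no support. The 5.23 of Cd8a rests on counts near 0 in the controls. Cd8a had 0 to 3 reads per tumor in the cxC26 scr group and 26 to 92 in the cxC26 IL6KOs1 group. The 5 natural killer and cytotoxic genes summed to 0.877 to 4.97 CPM against 9.56 to 38.3 CPM, with 38.3 in replicate 1. The 3 tested genes were called higher, Gzmb by 3.11. Nkg7 reached 1 CPM only in cxC26 IL6KOs1 tumors and passed the filter through them. Prf1 overlapped between the groups and lost the call without replicate 1 (adjusted p = 0.0958 from limma). Ncr1 and Klrb1c were below the filter and overlapped too. The B cell sums overlapped (1.14 to 2.25 against 2.17 to 8.68 CPM), and the 1 gene tested, Cd79a, was not called (0.29). The 5 dendritic cell genes did not move together. Their sums of 77.6 to 106 CPM against 15.5 to 62.1 CPM were carried by Itgax and Zbtb46, which were both lower, by 1.89 and 2.42. The other genes of that list were below the filter and not tested, with 2 to 5 reads of Xcr1 against 6 to 17, 4 to 11 of Ccr7 against 13 to 56 and 1 to 11 of Flt3 against 11 to 23. Neutrophil sums overlapped (10.1 to 18.8 against 15.7 to 27.5 CPM, 1 of 3 tested genes higher, Csf3r not called at 0.34), as did fibroblast sums (3655 to 5503 against 3128 to 4644 CPM, 1 of 4 lower, Col1a2 not called at 0.14) and endothelial sums (85.1 to 129 against 94.1 to 115 CPM, 0 of 3 called, Pecam1 at 0.05). The carcinoma epithelium genes were low, at 2.96 to 4.85 CPM against 14.3 to 26.6 CPM. Of these, Epcam, Krt8 and Krt19 were below the filter, with at most 15 reads in a tumor, so these epithelial markers were nearly absent. The 2 tested genes were both higher, Krt18 by 3.20 and Cdh1 by 1.46. Cdh1 had 17 to 37 reads in the cxC26 scr tumors and 45 to 87 in the cxC26 IL6KOs1 tumors.

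The genes outside the lists whose profile over the 8 tumors was most like the mean profile of the 10 genes were sought by the root mean square difference of log2 CPM after subtraction of each mean. They were Srgap3 (0.145), Ccdc88b (0.174), Il10ra (0.175), Snx20 (0.176) and Irgm1 (0.178). Irgm1, an interferon-induced GTPase, was at 4.18, 4.29, 4.01 and 3.98 log2 CPM in the cxC26 scr tumors and at 6.66, 5.09, 4.99 and 5.24 log2 CPM in the cxC26 IL6KOs1 tumors. Il10ra, the interleukin 10 receptor of leukocytes, was at 3.68 to 3.79 log2 CPM against 4.16 to 5.39. Replicate 1 of cxC26 IL6KOs1 was the highest tumor for both of these genes. This follows from the choice, since the mean profile of the 10 genes is highest in that tumor.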

How the data were processed

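Bulk RNA-seq of 8 tumors was used, 4 per group, assigned by the sample titles. The authors deposited log2 CPM made with limma-voom from featureCounts counts of reads that Trimmomatic had trimmed and HISAT2 had aligned to mm10. Versions other than bcl2fastq 2.17, the annotation and the strand setting are not given in the sources used here. The library kit does not mark strand, so reads of overlapping genes can be mixed.

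Whole reads were recovered by inverting the voom formula (100.0% within 0.1 of a whole number) and gave 14158989 to 17048062 reads per tumor. These totals limit genes with few reads.

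limma 3.58.1 in R 4.3.3 (lmFit, eBayes with trend) was fitted to the deposited values of the genes reaching 1 CPM in 4 or more tumors, with no covariate and a Benjamini-Hochberg threshold of 0.05. Ratios were compared over all 70 splits of the tumors. The fit was tested on simulated data. Gene positions and promoters are those of RefSeq on GRCm38.p6, and transcripts are those of GENCODE M21.

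The members and lists were chosen with earlier results of these data known. Named were all 10 genes, Il6, the 2 genes of highest mean and the largest called changes of each role, the highest gene of each marker list and the 5 most alike profiles. Other genes were named after their values had been seen, and 1 gene chosen by the rule is not reported here. Alternatives were no filter, quantile normalization, a minimum mean of 3 log2 CPM, median re-centring, the replicate number as a block, variance without trend, precision weights, a pseudocount of 1 CPM, a 2-fold threshold and each tumor left out. Removal of regional medians and the comparison with Nlrc5 were chosen after seeing the data.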

Additional observations from a re-analysis of the deposited data

Results flagged for a closer look

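A tumor was singled out where its gap to the nearest of the other 3 tumors of its group, over the whole range of the group, was above Dixon's critical value for 4 samples. Of 102 groups of 4 tumors examined for the genes and ratios named, 20 held such a tumor, where chance gives about 5.1, and the groups are not independent, since 13 of the 20 concern cxC26 IL6KOs1 replicate 1. This tumor was above the other 3 of its group in H2-K1 (9.44 log2 CPM against 8.31 to 8.50), Psmb8 (7.57 against 5.68 to 5.70) and Psmb9 (6.39 against 3.97 to 4.28). It was also above them in the class Ib genes H2-Q4 (8.54 log2 CPM) and H2-Q7 (4.01), in Tapbpl (4.76) and Jak2 (7.43), and in the class II genes Cd74 (9.18) and H2-Ab1 (8.09). The same held for Srgap3 (4.58 log2 CPM), Ccdc88b (4.61) and Irgm1 (6.66), which were chosen for a profile like that of the 10 genes, and for the log2 ratio of Psmb10 to Psmb7 (-1.11 against -2.42 to -2.23).

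The remaining 7 concern other tumors. In cxC26 scr replicate 2, Psmb8 was at 4.996 log2 CPM against 4.75 to 4.78, its log2 ratio to Psmb5 was -1.29 against -1.45 to -1.43, and Cd74 was at 6.09 log2 CPM against 4.97 to 5.01. Rela was at 7.08 log2 CPM in cxC26 scr replicate 1 against 6.55 to 6.59, and Snx20 at 1.69 in cxC26 scr replicate 4 against 1.81 to 1.83. In the knockout group, Nfkb1 was at 7.63 log2 CPM in replicate 2 against 7.38 to 7.39, and Il6 at 2.46 in replicate 3 against 1.99 to 2.04.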

How the results depend on the processing

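Over 17 alternatives each, H2-K1, H2-D1, B2m, Tap1, Tap2, Tapbp and Psmb9 were higher with an adjusted p under the threshold in all 17, Psmb8 in 16 and Psmb10 in 15, and Nlrc5 in 0. With each tumor left out in turn, 8 to 9 of the 10 genes, 15 to 21 of the other pathway genes, 0 to 1 class II genes and 2023 to 2540 of all genes were called higher, and 7 to 8 other pathway genes and 2193 to 2674 of all genes lower. A 2-fold requirement left 829 genes higher and 521 lower, 5 of the 10 genes, and 10 other pathway genes higher and 0 lower. With no filter 10 other pathway genes were higher, with regional medians removed 4 were lower, and with median re-centring 1 class II gene was higher. Between tumors left out, the log2 ratio of Psmb8 to Psmb5 differed by 0.84 to 1.52, Psmb9 to Psmb6 by 1.86 to 2.68 and Psmb10 to Psmb7 by 0.54 to 0.97, and Nlrc5 had a log2 fold change from -0.079 to 0.60, Psmb7 from -0.064 to 0.012, Cd79a from -0.14 to 0.56 and Pecam1 from -0.0052 to 0.13. Psmb7 was at 0.017 with quantile normalization. With regional medians removed, Psmb6 was at 0.055, Pomp at 0.12, Nfkb1 at -0.089, Rela at -0.059, Creb1 at 0.00034 and Jak1 at -0.064. For these changes of direction the cause was not tested.

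Tumors with the same replicate number came from different mice and did not deviate together (correlations of -0.06, 0.06, 0.02 and -0.06), so the numbers do not pair them. With the replicate number as a block no call of the 10 genes changed. By sign flips of the same-numbered differences, as a replicate block, the 3 ratios differed by 1.25, 2.40 and 0.83, each with the smallest p that 4 pairs allow (exact, p = 0.125). The reads per tumor limit what can be seen in Ifng, H2-T3 and other genes with few reads.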
